A study of Mus musculus with 96 samples.

Results

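The 38 genes described here are needed for mitosis, the step in which a cell separates its copied chromosomes. They were chosen by name from the known machinery of mitosis, and each was present among the 21711 gene rows of a single-cell table. All 38 had at least 20 reads over both cell types, as did 12818 gene rows in all. They were followed over 45 mouse embryonic stem cells (ES cells) and 44 mouse embryonic fibroblasts (MEFs), 1 cell in each well.

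Most mitosis genes are transcribed late in the cell cycle, and their messages are degraded after division, so that their joint level marks cells between the end of DNA synthesis and division. Cyclins switch on the kinase Cdk1, further kinases build the spindle and the kinetochores, and the anaphase-promoting complex then destroys the cyclins and releases the chromosomes. Pluripotent ES cells cycle quickly with a short gap before DNA synthesis, whereas cultured fibroblasts often leave the cycle.

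The study profiled single cells of 1 plate of 96 wells by single-cell tagged reverse transcription (STRT), which reads the 5′ end of transcripts and keeps their strand. The 48 ES cell wells were labelled as the R1 line, an established mouse ES cell line, cultured by a protocol that the labels only cite. The 44 MEF wells were labelled as embryonic fibroblasts grown in DMEM with serum, antibiotics, Glutamax and 2-mercaptoethanol, and 4 wells were negative controls. No genotype change, drug or transgene was labelled in any group; the labels also name R1 as the source line of the MEF wells, which conflicts with their cell type, and state no separate cultures. Each cell type therefore counted as 1 sample, cells were not replicates, and no p-value was computed.

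The ES cell wells that passed a minimum of 10000 gene reads held 13576 to 703423 gene reads, MEF wells 63938 to 1883709, and negative control wells 236 to 4662. Of 7 ES cell markers, 7 were 2-fold or more higher in ES cells (background 15.4% of 12818 measured genes). Of 7 MEF markers, 7 were 2-fold or more lower (background 58.5%). The summed ES cell markers had a median of 7305 CPM (reads of the genes per 1000000 gene reads of the well) over ES cells and 26.5 CPM over MEFs, and the summed MEF markers 1546 CPM over ES cells and 37513 CPM over MEFs. ES cell replicates 4, 7 and 30 held the highest levels of MEF markers among ES cells, 39505, 27062 and 16056 CPM, so several results on ES cells are also given without them. Replicates 8 and 2 followed at 14732 and 14085 CPM and were not taken out with them. Replicates 2, 7, 8 and 30 held only 0.35 to 0.39 gene reads per spike-in read, against a median of 6.62 over ES cells. Negative control wells had a median of 29241 CPM of MEF markers. Whether these ES cell wells held mostly stray reads was not tested. Of 9 markers of early endoderm, epithelium, macrophages and endothelium, Sox17 and Pecam1 had no read in either type. Of the 7 measured, 2 were 2-fold or more higher in ES cells (background 15.4%) and 4 2-fold or more lower (background 58.5%). Lama1 had 183 reads in 10 ES cells, against 3 reads in 1 MEF. All 20 reads of Krt8 came from 1 ES cell, against 0 from MEFs. Gata6 had 2 reads in 1 ES cell, against 743 reads in 17 MEFs. Kdr, Krt18, Lyz2 and Csf1r had 0 reads in ES cells, against 200, 149, 74 and 23 reads in 4, 7, 2 and 1 MEFs. The 9 summed to 0 to 319 CPM over ES cells, with 34 of 45 at 0, and to 0 to 331.5 CPM over MEFs, with 21 of 44 at 0, and their part in the results was not tested.

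Promoter stretches of 6 members are printed because genes of this program are known to share short motifs next to their start. The motifs searched were CCAAT, which the factor NF-Y is known to bind, and TTTGAA and TTCGAA, the core letters of the element through which the DREAM and MuvB complexes act. Each was read on either strand, so ATTGG and TTCAAA also counted. The 6 printed members were all among the 10 of 32 with both CCAAT and TTTGAA in the 250 bases before the start. Of all genes, 7.34% held both, and the 6 do not stand for all members. Shown are the 120 bases before the RefSeq gene start (GRCm38.p6), 5′ to 3′ on the gene's strand, with motif letters in capitals.
Ccnb2, chr9:70421555-70421674, minus strand: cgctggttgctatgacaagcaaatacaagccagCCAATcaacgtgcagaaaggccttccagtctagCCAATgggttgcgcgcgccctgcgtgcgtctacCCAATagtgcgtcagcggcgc
Cdk1, chr10:69352913-69353032, minus strand: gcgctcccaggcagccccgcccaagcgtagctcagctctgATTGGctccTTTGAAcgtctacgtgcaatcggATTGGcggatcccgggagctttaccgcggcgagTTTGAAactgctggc
Cdc20, chr4:118437344-118437463, minus strand: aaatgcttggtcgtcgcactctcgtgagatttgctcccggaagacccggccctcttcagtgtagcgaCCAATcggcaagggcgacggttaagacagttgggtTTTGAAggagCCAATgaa
Ube2c, chr2:164769809-164769928, plus strand: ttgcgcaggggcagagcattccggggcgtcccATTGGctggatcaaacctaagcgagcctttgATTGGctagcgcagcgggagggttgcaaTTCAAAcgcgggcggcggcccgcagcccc
Top2a, chr11:99024190-99024309, minus strand: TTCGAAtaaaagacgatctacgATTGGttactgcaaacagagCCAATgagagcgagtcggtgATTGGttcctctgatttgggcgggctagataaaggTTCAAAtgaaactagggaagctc
Prc1 (the downstream of its starts), chr7:80294356-80294475, plus strand: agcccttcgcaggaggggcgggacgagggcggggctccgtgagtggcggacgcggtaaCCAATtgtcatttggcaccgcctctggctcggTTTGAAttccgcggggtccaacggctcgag
Ccnb2 held CCAAT 3 times in this stretch, with first bases at −87, −54 and −21 from the start. Cdk1 and Ube2c each had a pair of CCAAT motifs on the opposite strand, and Top2a held 3 in mixed orientation. TTTGAA stood within 30 bases of the start in Cdk1, Cdc20, Ube2c, Top2a and the printed Prc1 stretch. The 120 bases before the other Prc1 start held CCAAT and neither TTTGAA nor TTCGAA.

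RefSeq held a promoter for 32 of the 38 members. Within the 250 bases before the start, CCAAT occurred in 25 of these 32 (78.1%) and in 37.5% of 27025 genes in the same table. TTTGAA occurred in 11 of 32 (34.4%, against 18.3% of all genes) and TTCGAA in 2 of 32 (6.2%, against 1.55%). When the window was extended to 50 bases after the start, a choice made after seeing the data, TTTGAA occurred in 25 of 32 (78.1%, against 20.2%). In the 100 bases centred on the start it occurred in 23 of 32 (71.9%, against 5.72%). Ccnb1, Birc5 and Nuf2 were among the 7 members without TTTGAA in the 300 bases. A match describes letters only.

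Mitosis genes were spread over most ES cells, whereas in MEFs they were concentrated in 5 cells. The summed level of the 38 members had a median of 1701 CPM over 45 ES cells, with the lowest cell at 0 and the highest at 6640 CPM, and a median of 120 CPM over 44 MEFs, with the lowest at 0 and the highest at 10160 CPM. The quartiles of ES cells lay at 891 and 2840 CPM. Without ES cell replicates 4, 7 and 30 the ES cell median was 1735 CPM.

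MEF replicates 80, 51, 50, 58 and 89 had summed levels of 10160, 10031, 9917, 7826 and 7081 CPM. Each lay above every ES cell, and no MEF fell between 7081 CPM and the 612 CPM of the next. The other 39 MEFs lay between 0 and 612 CPM. Negative control wells held 9 member reads in all (6 of Mki67, 2 of Ccnb1 and 1 of Ube2c), and their summed levels of 0, 0, 459 and 1502 CPM rest on those few reads.

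**Figure D1:**
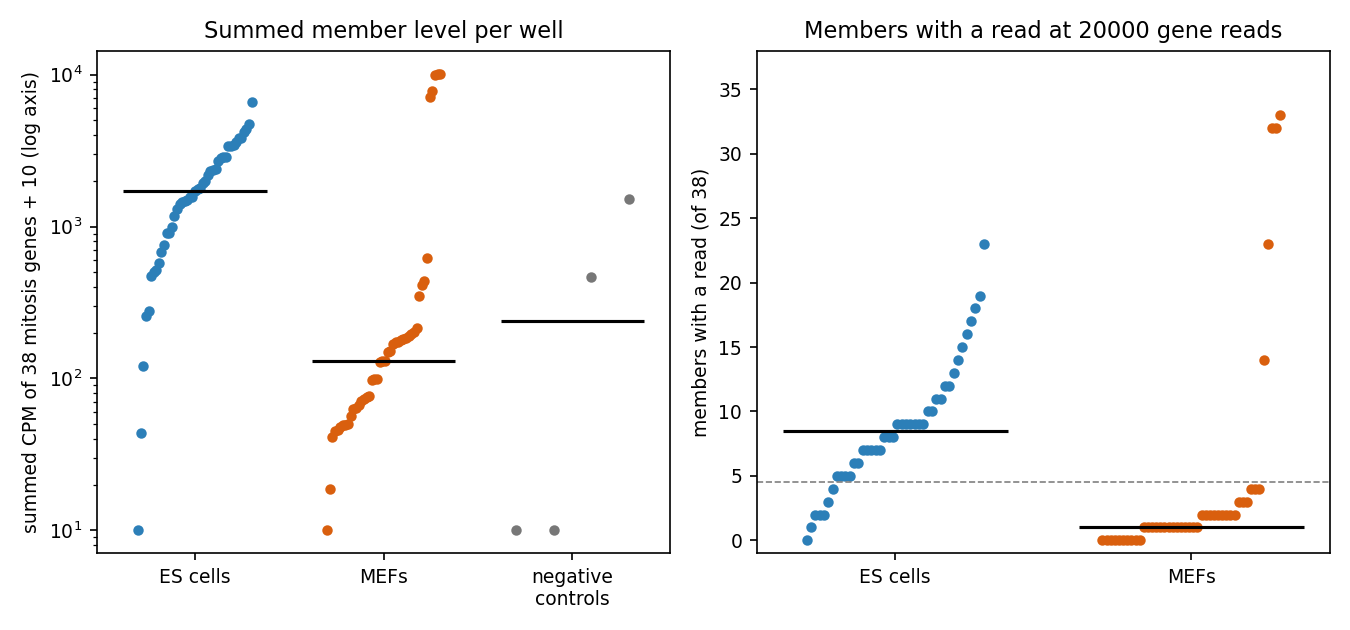
Left, summed CPM of the 38 mitosis genes plus 10 in each ES cell, MEF and negative control well on a log axis, in rising order within a type; right, members with a read (of 38) after each cell was thinned to 20000 gene reads, with the cut of 5 members as a dashed line. Bars are medians; 5 MEFs stand at 7081 to 10160 CPM above the rest, while ES cells spread over 0 to 6640 CPM.

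How many members a cell showed was compared at equal depth, because MEF wells were read more deeply. After thinning each cell to 20000 gene reads, ES cells had a median of 8.5 members with a read and MEFs 1. At least 5 members were read in 35 of 42 ES cells (83.3%, exact binomial interval 68.6 to 93) and in 5 of 44 MEFs (11.4%, 3.79 to 24.6). Intervals in this text are at the 95% level and cover counting error only. The 3 shallower ES cells were left out of this count, no MEF was, and without ES cell replicates 4, 7 and 30 the share was 33 of 40 (82.5%).

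The cut is a point in a range, not a boundary between cell types. With 4 or 5 members, 5 ES cells and 3 MEFs lay next to it, 1 ES cell and 10 MEFs had no member at this depth, and another random draw gave 31 of 42 ES cells and 6 of 44 MEFs. At full depth at least 5 members were read in 39 of 45 ES cells (86.7%), against 34 of 44 MEFs (77.3%). At equal depth the ES cell with the most members had 23, and the 5 MEFs had 14 to 33.

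The 35 ES cells past the cut held 98.4% of ES cell reads of mitosis genes with 90.03% of gene reads, whereas the 5 MEFs past it held 90.4% of MEF reads of mitosis genes with 12.1% of gene reads. Replicates 58 and 51 alone held 32.7% and 31.9%, replicate 89 held 17.7%, and replicates 50 and 80 held 4.16% and 4.04%. Cells past the cut were picked by reads of the same members, so a raised share of member reads is partly built in. By depth the 5 MEFs lay among the others: they had 157772 to 1657876 gene reads, with a median of 991965, and the other 39 had a median of 840590. They had 76.5 to 505 gene reads per spike-in read, against 41.4 to 544 in the other 39.

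MEF markers and ES cell markers in these 5 cells lay within the range of the other MEFs. Summed MEF markers had a median of 24706 CPM (15166 to 33238) in the 5 and 38644 CPM (10797 to 72039) in the other 39. Summed ES cell markers had a median of 21.4 CPM (6.3 to 39.8) in the 5 and 26.9 CPM (0 to 184) in the other 39. Markers of other cells summed to 0 CPM in 3 of the 5 and to 24.1 and 37.2 CPM in the other two.

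**Figure D2:**
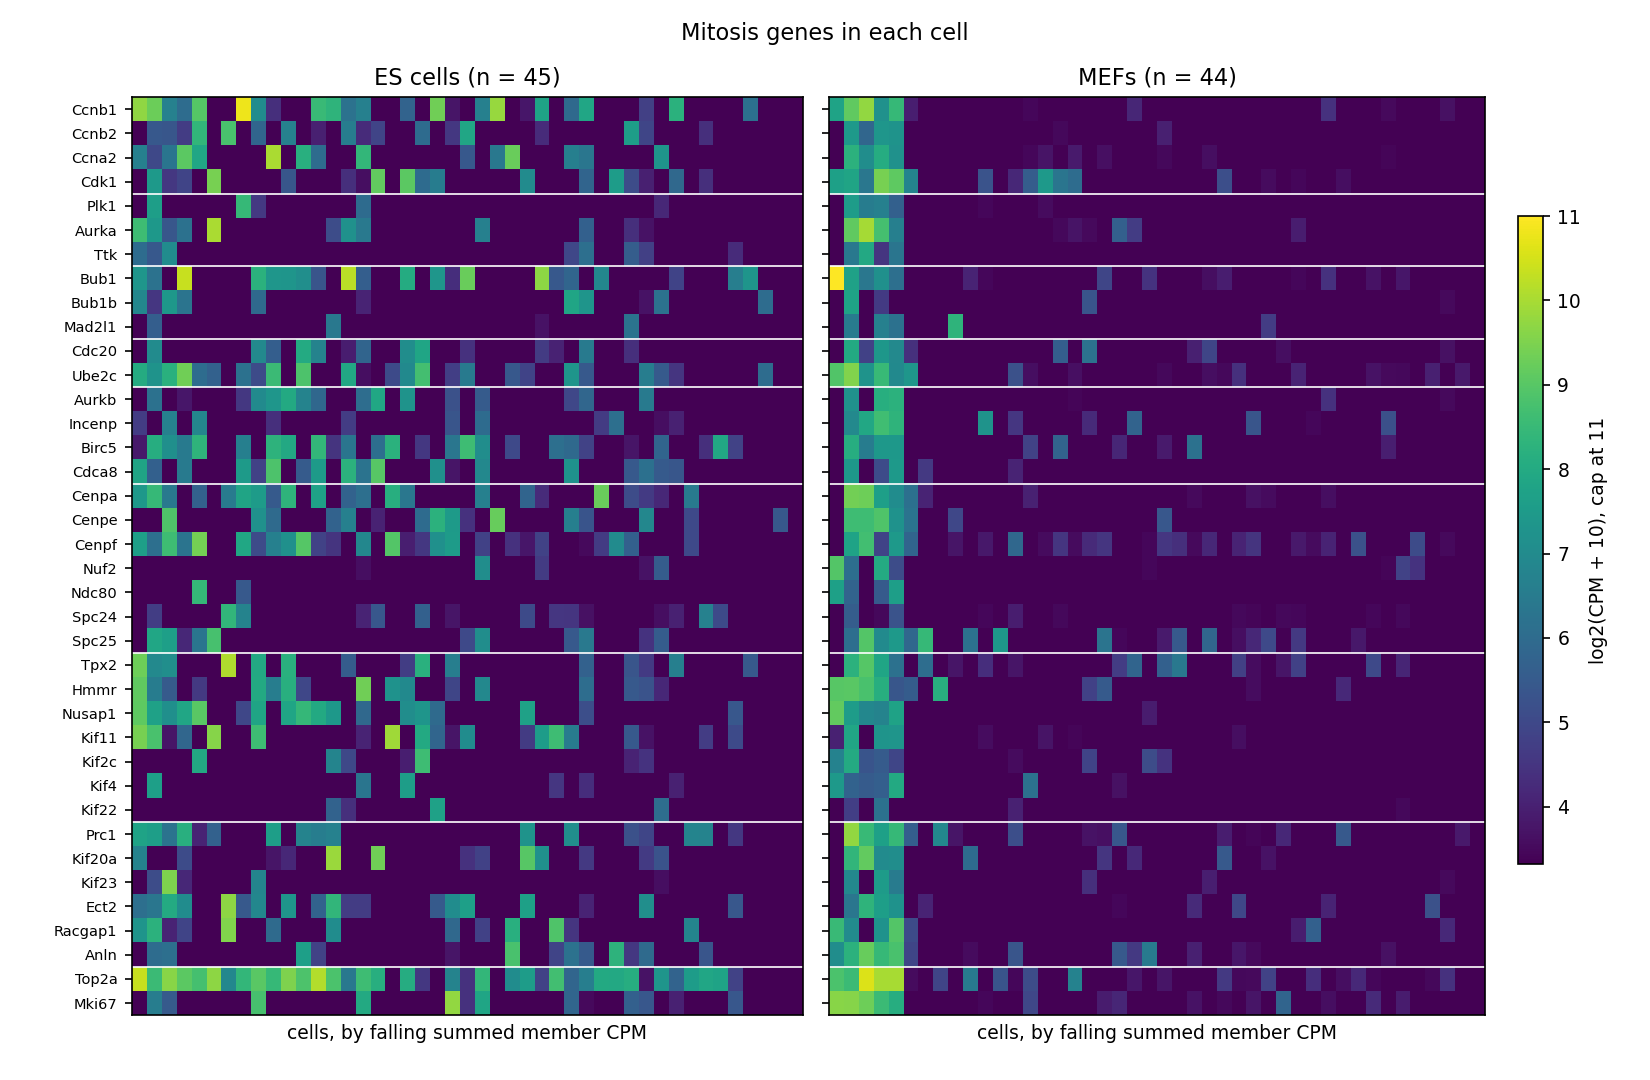
Level of each of the 38 mitosis genes (rows, in groups of the same role, separated by white lines) as log2(CPM + 10) in each of 45 ES cells (left) and 44 MEFs (right), ordered by falling summed member CPM. In MEFs the leftmost 5 columns carry most genes, and in ES cells each column carries a different subset.

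The 5 MEFs did not carry the same mixture of mitosis genes. Of the 38 members, 11 had a read in all 5 (Ccnb1, Cdk1, Bub1, Ube2c, Hmmr, Nusap1, Kif2c, Kif4, Anln, Top2a and Mki67), 20 in 4, 5 in 3, and 2 (Bub1b and Kif22) in 2. Replicates 51 and 58 had a read of all 38, replicate 89 of 36, replicate 50 of 27 and replicate 80 of 15. Replicate 80 had 157772 gene reads and replicate 50 had 166691, and the other 3 had 991965 or more.

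Most of the level in replicate 80 came from the checkpoint kinase gene Bub1, at 5565 of 10160 CPM. Hmmr, Nusap1 and Mki67 had 501, 564 and 780 CPM there, whereas Aurka, Aurkb, Birc5, Cenpa, Cdc20, Plk1 and Prc1 had none. Replicate 50 was highest of all 44 MEFs for 10 members, among them Aurka at 984 CPM, Ccnb1 at 858 CPM and Top2a at 1548 CPM. Replicate 51 was highest for 13, among them Cenpa at 645 CPM, Ube2c at 731 CPM and Prc1 at 854 CPM. A single member, the checkpoint gene Mad2l1, peaked outside these 5 cells, at 309 CPM in MEF replicate 83.

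**Figure D3:**
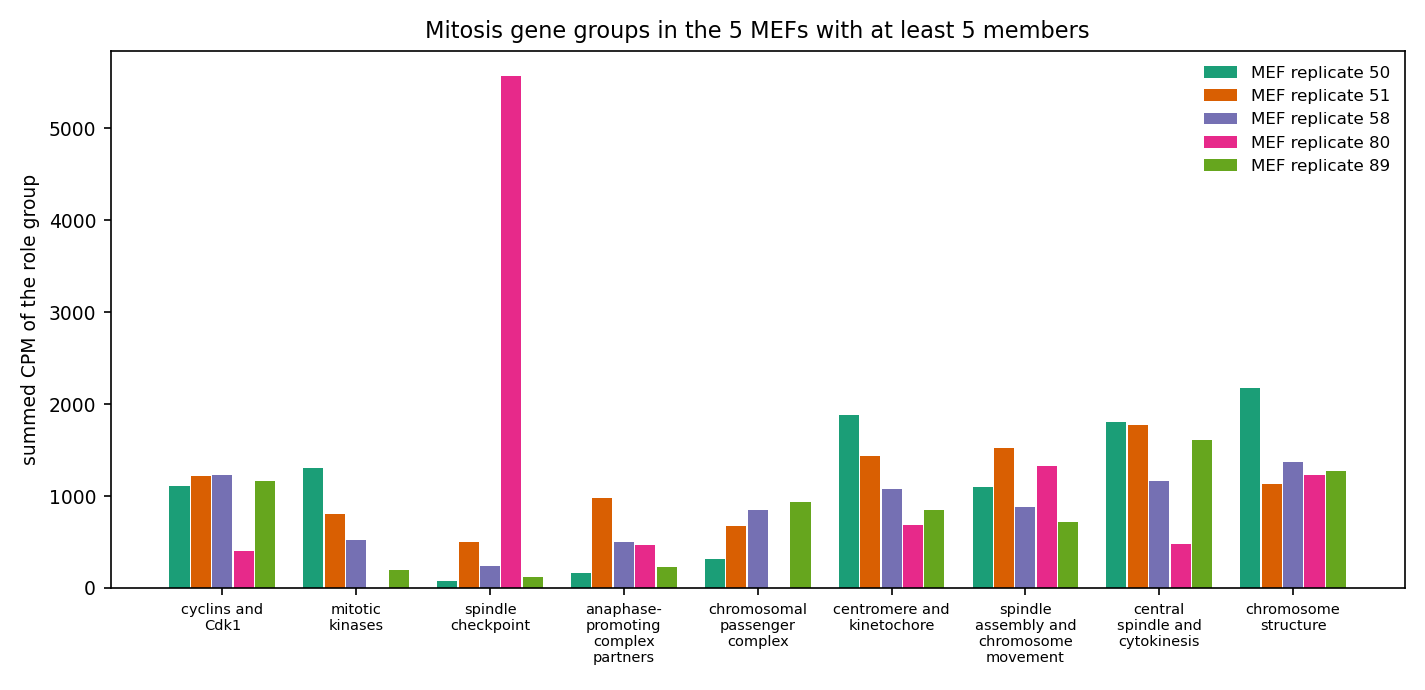
Summed CPM of each role group of mitosis genes in MEF replicates 50, 51, 58, 80 and 89, the cells with at least 5 members at equal depth. Replicate 80 has 5565 CPM of spindle checkpoint genes, all from Bub1, and 0 CPM of mitotic kinases and of the chromosomal passenger complex.

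In ES cells the peaks were scattered. The highest ES cell differed from gene to gene, with 24 ES cells holding the peak of at least 1 member and at most 5 members peaking in 1 cell (replicate 17), against 6 such cells among MEFs. Replicate 17 had 36963 gene reads and 7 members with a read, and replicate 7, with 23428 gene reads, held 3 peaks. The part of read depth in this scatter was not tested. The 5 cells with the highest level held at least 90% of the summed CPM for 9 of 38 members in ES cells (background 56.3% of 9088 genes with at least 20 reads in the type). In MEFs this was so for 33 of 38 members (background 28.9% of 12225 genes). The median share of the top 5 cells was 79.6% for members and 93.1% for all genes in ES cells, and 96.6% for members and 68.4% for all genes in MEFs. Among genes with a read in at least 25% of the cells of a type, the share was 72.7% for 26 members and 71.2% for 3414 genes in ES cells, and 91.5% for 17 members and 55.2% for 8358 genes in MEFs.

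Whether members moved together from cell to cell was measured as Pearson r of log2(CPM + 10) over cells, for genes with a read in at least 25% of the cells of a type. Over 45 ES cells the median r of 325 pairs among 26 members was 0.13, and that of all gene pairs was 0.063. Without ES cell replicates 4, 7 and 30 it was 0.12 over 25 members. Over 44 MEFs the median r of 136 pairs among 17 members was 0.68, and that of all gene pairs was 0.044. These correlations describe cells that share 1 plate and differ in depth; among ES cells the number of members with a read had r = 0.73 with log10 gene reads, and among MEFs r = 0.29.

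The MEF correlation was seen with the 5 cells counted and not in the 39 MEFs below the cut. Of the 17 members, 10 also passed the detection filter among the 39 MEFs below the cut, and 7 (Ccnb1, Ccna2, Cdc20, Incenp, Cenpa, Spc24 and Hmmr) passed it only with the 5 cells counted, so that their correlation is partly set by how they entered. Those 39 MEFs were set apart by reads of these same members, so a low r among them is partly built in. Among them, a selection made after seeing the data, the median r was −0.01 over the 10 members. In plate rows E to H, which held 1 of the 5 cells, it was −0.04 over 11 members, and in rows A to D 0.79 over 24 members. By ranks (Spearman) the MEF median was 0.37.

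Each member was then set against the summed CPM of the other members. In ES cells 1 of the 26 members passing the detection filter had r of at least 0.5 (background 0.117% of 3414 genes). That member was Top2a, the topoisomerase that untangles chromosomes, with r = 0.54; over all 38 members Nusap1 and Cenpf followed at 0.45 each, and Nuf2 was lowest at −0.03. In MEFs 16 of 17 members reached 0.5 (background 0.861% of 8358 genes), and over all 38 r ran between 0.37 for Mad2l1 and 0.85 for Nusap1 and Ccnb1. These MEF values rest on the same 5 cells, which held 89.7% of the summed member CPM of MEFs. Of the 17 members, 7 passed the filter only with those cells counted, so the count is partly set by how they entered.

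**Figure D4:**
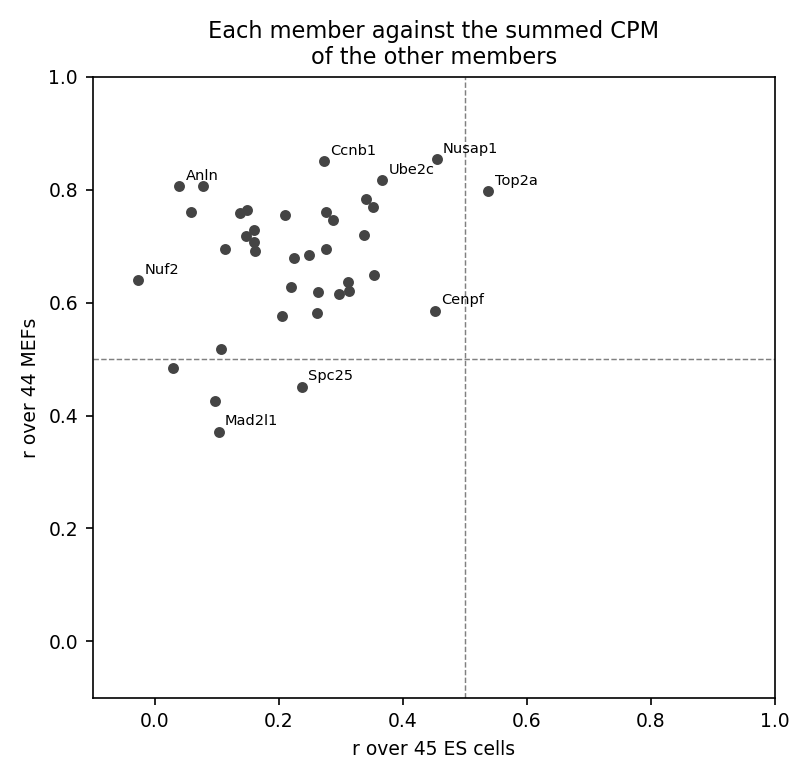
Pearson r of each of the 38 members with the summed CPM of the other members, over 45 ES cells (horizontal) and over 44 MEFs (vertical), with dashed lines at 0.5. Top2a alone passes 0.5 in ES cells, and all members lie at 0.37 or more in MEFs; members below the detection filter are included.

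Outside the members, the 8 gene rows most like the program over 45 ES cells were Snrpe (r = 0.53), Nsa2 (0.52), Gm13242 (0.51), mt-Nd5 (0.50), Set (0.45), Ndufa6 (0.44), Qk (0.43) and Fam60a (0.43). Snrpe is a spliceosome protein, and mt-Nd5 and Ndufa6 are respiratory chain subunits. None of these 8 is in the lists of cell cycle genes used here.

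The 8 most like rows over 44 MEFs were Cdca3 (0.76), 2810417H13Rik (0.75), Atad2 (0.73), Rrm1 (0.69), Uhrf1 (0.69), Tmpo (0.69), Fzr1 (0.66) and H2afv (0.65). Cdca3 and Fzr1 are in the further list of G2 and M phase genes, Rrm1 in that of DNA replication, and the others in none. Rrm1 encodes a subunit of ribonucleotide reductase, Uhrf1 a factor of maintenance DNA methylation, and Fzr1 an activator of the anaphase-promoting complex. Over the 39 MEFs below the cut their r lay between −0.02 (Tmpo) and 0.32 (Rrm1). These cells were set apart by reads of the members, so a lower r there is partly built in. In all, 3 rows outside the members reached 0.5 in ES cells and 56 in MEFs.

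Pooled over all cells of a type, mitosis genes took 2156 CPM in ES cells and 1130 CPM in MEFs, a log2 ratio of 0.93. On this scale 16 of 38 members were 2-fold or more higher in ES cells (background 15.4% of 12818 measured genes), 3 were 2-fold or more lower (background 58.5%) and 19 were neither. The median measured gene had a log2 ratio of −1.48, so ratios are also given relative to it. Relative to it 32 members were 2-fold or more higher (background 33%) and 0 2-fold or more lower (background 33.3%). Their median ratio relative to that gene was 2.29 on the log2 scale (SD over 8 plate rows 2.53). The SD was larger than the median, and the 5 MEFs were spread unevenly over plate rows. Without ES cell replicates 4, 7 and 30 the median was 2.33 and the counts were 16 and 3.

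This pooled comparison turned on a few MEFs. Without MEF replicates 51 and 58 the median was 3.82, and 32 members were 2-fold or more higher and 1 2-fold or more lower on the CPM scale. Leaving out replicate 51 alone, or replicate 58 alone, gave 25 higher (1 lower without replicate 58), and leaving out ES cell replicate 5 gave 5 lower. In plate rows A to D, which held 4 of the 5 MEFs, the median was 1.71 with 11 higher and 10 lower, and in rows E to H it was 5.41 with 35 higher and 1 lower. Scaled to spike-in RNA, all 38 members were 2-fold or more lower in ES cells, with a median log2 ratio of −3.75 (background 94.7% of measured genes, whose median was −6.04). This scaling moves every gene by the same −4.56 on the log2 scale, because MEF wells held more gene reads per spike-in read, so it leaves the place of the members among other genes as it was.

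**Figure D5:**
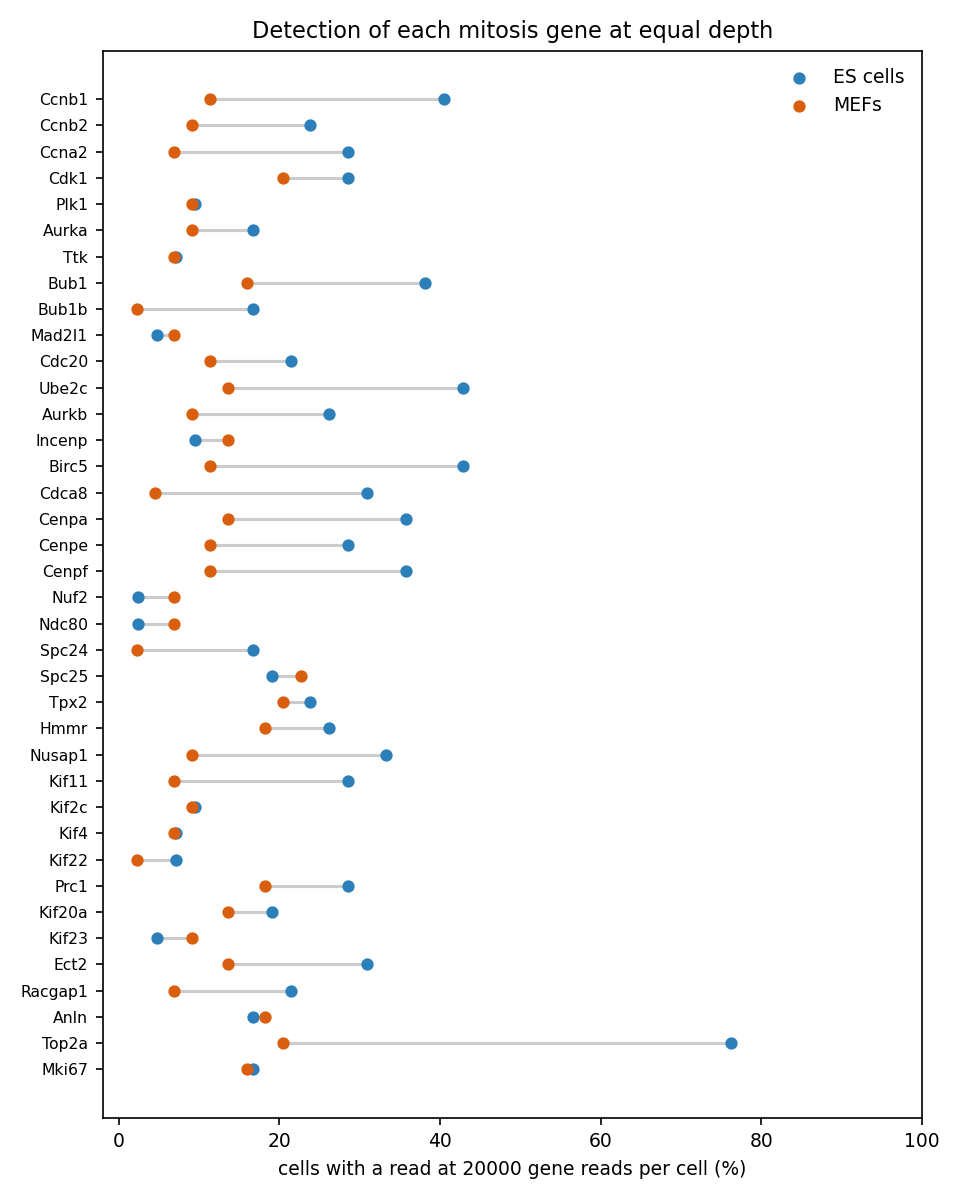
Share of cells (%) with at least 1 read of each mitosis gene after thinning to 20000 gene reads, in 42 ES cells (blue) and 44 MEFs (orange). Of 38 members, 31 were read in a larger share of ES cells, with the widest gap for Top2a (76.2% against 20.5%).

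At equal depth a member was read in a median of 22.6% of ES cells, against 10.2% of MEFs. Of 38 members, 31 were read in a larger share of ES cells (background 18.8% of measured genes) and 7 in a larger share of MEFs (Mad2l1, Incenp, Nuf2, Ndc80, Spc25, Kif23 and Anln). The gap was at least 20 percentage points, to the side of ES cells, for 11 members and under 5 points for 14. Plk1, Ttk, Kif2c, Kif4 and Mki67 were read in the same number of cells of each type. Their larger share in ES cells came only from comparing 42 ES cells with 44 MEFs. For comparison, the 7 ES cell markers were read in a median of 81% of ES cells and 4.55% of MEFs at this depth. The 7 MEF markers were read in 78.6% of ES cells and all MEFs (medians). Whether reads of the other type's markers were stray was not tested.

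The cyclins and Cdk1 start mitosis, and 2 of these 4 genes were 2-fold or more higher in ES cells on the CPM scale (background 15.4%). Ccnb1, the main mitotic cyclin, had 0 CPM in the lowest, 3.80 in the median and 1774 in the highest ES cell, against 0, 0 and 858 CPM in MEFs. Its pooled level was 181 CPM in ES cells and 41.5 CPM in MEFs, a relative log2 ratio (set against the median gene) of 3.60, with an SD over plate rows of 3.77. At equal depth 17 of 42 ES cells and 5 of 44 MEFs had a read. Ccna2, the cyclin of S and G2 phase, had 105 CPM in ES cells and 27.7 CPM in MEFs, and Ccnb2 26.8 and 17.7 CPM. Cdk1, their kinase, had 48.0 CPM in ES cells and 68.4 CPM in MEFs, and reached 163 CPM among the 39 MEFs below the cut, where Ccnb1 reached 11.5 CPM.

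For the mitotic kinases Aurka and Plk1 the direction of the pooled difference hung on 1 cell. Aurka, which matures the spindle poles, had 0, 0 and 1024 CPM in the lowest, median and highest ES cell, against 0, 0 and 984 CPM in MEFs. That highest ES cell was replicate 7, with 23428 gene reads and 27062 CPM of MEF markers. The next ES cell, replicate 11, had 379.5 CPM of Aurka. The pooled levels of Aurka were 39.3 CPM in ES cells and 48.9 CPM in MEFs, a relative log2 ratio of 1.16 (SD 4.09). Plk1, which acts from mitotic entry to cytokinesis, reached 346 CPM in the highest ES cell and 180 CPM in the highest MEF, with a relative log2 ratio of 2.32 (SD 4.06). Plk1 was read in only 4 of 42 ES cells and 4 of 44 MEFs at equal depth, with exact intervals of 2.66 to 22.6% and 2.53 to 21.7%. Ttk, the kinase Mps1, was read in 3 of 42 and 3 of 44 cells and had no read in the 39 MEFs below the cut. It had pooled levels of 15.5 CPM in ES cells and 6.31 CPM in MEFs and a relative log2 ratio of 2.77 (SD 2.09). Its log2 CPM ratio of 1.29 lay between 0.88 and 2.02 with any 1 cell left out. The mean over cells, which weights every cell alike, ran the other way, with 7.91 CPM in ES cells and 8.97 CPM in MEFs. At equal depth the log2 CPM ratio of Ttk was −0.67.

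The spindle checkpoint holds anaphase until every chromosome is attached. Bub1, a checkpoint kinase, had 0, 0 and 1294 CPM in the lowest, median and highest ES cell, against 0, 0 and 5565 CPM in MEFs. Its pooled levels of 144 CPM in ES cells and 41.8 CPM in MEFs gave a relative log2 ratio of 3.26 (SD 3.27), and at equal depth 16 of 42 ES cells and 7 of 44 MEFs had a read. The mean over cells, which weights every cell alike, ran the other way, with 128 CPM in ES cells and 138.6 CPM in MEFs, and it includes the 5565 CPM of MEF replicate 80. Bub1b had 34.5 CPM in ES cells and 8.88 CPM in MEFs. Mad2l1 was read in only 2 of 42 ES cells and 3 of 44 MEFs.

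Both partners of the anaphase-promoting complex fell short of 2-fold on the CPM scale. Ube2c, its ubiquitin-conjugating enzyme, had 0, 16.9 and 635 CPM in the lowest, median and highest ES cell, against 0, 0 and 731 CPM in MEFs. At equal depth 18 of 42 ES cells and 6 of 44 MEFs had a read, with a relative log2 ratio of 2.26 (SD 3.33). Cdc20, its mitotic activator, reached 249.2 CPM in the highest ES cell and 245 CPM in the highest MEF, and was read in 9 of 42 and 5 of 44 cells. Its relative log2 ratio was 2.06 (SD 4.69).

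The chromosomal passenger complex, which corrects faulty attachments, split in direction. Its subunit gene Birc5 (survivin) had 0, 12.4 and 380 CPM in the lowest, median and highest ES cell, against 0, 0 and 265 CPM in MEFs, and was read in 18 of 42 and 5 of 44 cells at equal depth. Birc5 had pooled levels of 75 CPM in ES cells and 25.4 CPM in MEFs and a relative log2 ratio of 3.04 (SD 3.05). Cdca8 (borealin) had the highest relative log2 ratio of all members, 3.94 (SD 2.80), with 65 CPM in ES cells and 11.8 CPM in MEFs. Incenp, the scaffold subunit, was the lowest at −0.91 (SD 2.80), with 7.80 CPM in ES cells and 41 CPM in MEFs. The kinase subunit Aurkb had 37.7 CPM in ES cells and 26.2 CPM in MEFs.

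Of 7 centromere and kinetochore genes, 2 (Cenpf and Spc24) were 2-fold or more higher in ES cells on the CPM scale (background 15.4%). On that scale 1 (Nuf2) was 2-fold or more lower (background 58.5%). Cenpa, the histone that marks centromeres, had 0, 0 and 599 CPM in the lowest, median and highest ES cell, against 0, 0 and 645 CPM in MEFs. At equal depth 15 of 42 ES cells and 6 of 44 MEFs had a read, with a relative log2 ratio of 2.19 (SD 3.99). Cenpf, an outer kinetochore protein, was the member read in the most MEFs at full depth, 26 of 44, and had 78.1 CPM in ES cells and 21.4 CPM in MEFs. Ndc80 and Nuf2, which bind microtubules together, were each read in 1 of 42 ES cells, against 3 of 44 MEFs, and Ndc80 had no read in the 39 MEFs below the cut.

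All 7 genes of spindle assembly and chromosome movement were read in a larger share of ES cells at equal depth (background 18.8% of measured genes). For Kif2c (4 of 42 and 4 of 44) and Kif4 (3 of 42 and 3 of 44) this came only from the number of cells compared. On the CPM scale 4 (Hmmr, Nusap1, Kif11 and Kif22) were 2-fold or more higher in ES cells (background 15.4%). Hmmr, a spindle assembly factor, had 0, 0 and 632 CPM in the lowest, median and highest ES cell, against 0, 0 and 517 CPM in MEFs. It had pooled levels of 80.6 CPM in ES cells and 39.9 CPM in MEFs and a relative log2 ratio of 2.49 (SD 3.15). Without ES cell replicate 21 the log2 CPM ratio of Hmmr fell from 1.01 to 0.37, and at equal depth it was 0.10. That of Kif22, read in 4 ES cells at full depth, fell from 1.12 to 0.20 without ES cell replicate 12. The spindle motor Kif11 had 94.95 CPM in ES cells and 19.5 CPM in MEFs, and the microtubule bundler Nusap1 89.1 and 19.97 CPM. Nusap1 was read in 1 of the 39 MEFs below the cut and in all 5 above it.

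Among 6 genes of the central spindle and cytokinesis, 2 (Kif20a and Ect2) were 2-fold or more higher in ES cells on the CPM scale (background 15.4%). On that scale 1 (Anln) was 2-fold or more lower (background 58.5%). Prc1, which bundles the central spindle, had 0, 0 and 276 CPM in the lowest, median and highest ES cell, against 0, 0 and 854 CPM in MEFs. Its pooled levels of 54.2 CPM in ES cells and 55.9 CPM in MEFs had overlapping counting intervals, as did those of Cenpe, Kif2c and Mki67. Relative to the median gene Prc1 had a log2 ratio of 1.44 (SD 3.36). Anln (anillin), a scaffold of the cleavage furrow, had 23.7 CPM in ES cells and 48.4 CPM in MEFs. Ect2, which activates RhoA at the furrow, had 54.4 and 18.9 CPM.

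Top2a was the member read in the most ES cells. It had 0, 208 and 1289 CPM in the lowest, median and highest ES cell, against 0, 1.02 and 1548 CPM in MEFs. A read was found in 38 of 45 ES cells and 24 of 44 MEFs at full depth, and in 32 of 42 (76.2%, 60.6 to 88) and 9 of 44 (20.5%, 9.80 to 35.3) at equal depth. Its pooled levels were 282 CPM in ES cells and 106 CPM in MEFs, with a relative log2 ratio of 2.89 (SD 3.64). Mki67, the gene of the proliferation antigen Ki-67, was read at equal depth in 7 of 42 ES cells, against 7 of 44 MEFs, and had 65.2 CPM in ES cells and 61.3 CPM in MEFs. No read of Top2a, and 6 reads of Mki67, came from negative control wells.

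Leaving out 1 cell turned the direction of the pooled CPM ratio for 12 of 38 members. Without ES cell replicate 47, Plk1 went to −0.31 (with it, 0.85), Spc25 to −0.18 (0.56), Kif4 to −0.53 (0.74) and Racgap1 to −0.02 (0.71). Without ES cell replicate 27, Kif23 went to −1.65 (0.94) and Cenpe to −0.47 (0.05), and without replicate 41, Mki67 went to −0.71 (0.09). Without MEF replicate 51, Aurka went to 0.37 (−0.32), Prc1 to 1.05 (−0.04) and Kif2c to 1.21 (−0.37). Without MEF replicate 58, Cdk1 went to 0.32 (−0.51), and without MEF replicate 89, Ndc80 went to 0.51 (−0.64). Without MEF replicate 80, the log2 CPM ratio of Bub1 was 3.09, and with it 1.79.

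Further genes of G2 and M phase came from a list that excluded the members. Of 61 measured, 24 were 2-fold or more higher in ES cells (background 15.4%), 5 (Arhgap11a, Pttg1, Fam83d, Cdkn3 and Pbk) 2-fold or more lower (background 58.5%) and 32 neither, and their median lay 2.13 above the median gene on the log2 scale. Hmgb2, a chromatin protein, had 2110 CPM in ES cells and 88.9 CPM in MEFs, with 12 reads in negative control wells. Mybl2, a transcription factor of the late cell cycle, had 264 and 6.77 CPM, and the kinase gene Melk 521 and 45.3 CPM. Melk was read in only 6 of 42 ES cells and 5 of 44 MEFs at equal depth.

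DNA replication genes, which act before mitosis, lay above the median gene by a median of 2.99 on the log2 scale, over 40 measured genes. Of these, 24 were 2-fold or more higher in ES cells (background 15.4%), 4 (Rrm2, Ccne2, Cdc6 and Gins3) 2-fold or more lower (background 58.5%) and 12 neither. Mcm10 had 40.9 CPM in ES cells and 4.04 CPM in MEFs, and the primase gene Prim1 46.8 and 6.03 CPM. Rrm2, the regulated subunit of ribonucleotide reductase, had 24.8 CPM in ES cells and 119 CPM in MEFs.

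The replication list and the mitosis genes were high in the same MEFs. Summed replication genes had 5159, 2761, 2010, 3552 and 4418 CPM in MEF replicates 80, 51, 50, 58 and 89, and a median of 273 CPM (0 to 1591) in the other 39, so that the ranges did not overlap. Over all cells, the summed replication genes had r = 0.60 with the summed mitosis genes in ES cells and r = 0.72 in MEFs. The summed further G2 and M phase genes had r = 0.32 with them in ES cells and r = 0.65 in MEFs.

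Genes of growth arrest did not follow that pattern from cell to cell. Of 18 measured, 0 were 2-fold or more higher in ES cells (background 15.4%), 17 2-fold or more lower (background 58.5%) and 1 (Cdkn1b) neither, and their median was −1.49 relative to the median gene on the log2 scale. The inhibitor gene Cdkn1a had 116 CPM in ES cells and 1304 CPM in MEFs and was read in all 44 MEFs at equal depth. Gas6 had 15.3 and 254 CPM, and Btg2 11.9 and 195 CPM. Their summed level had r = 0.25 with the summed mitosis genes over ES cells and r = −0.09 over MEFs. It had a median of 4026 CPM (1432 to 6089) in the 5 MEFs and 3602 CPM (1310 to 9566) in the other 39.

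Within plate rows, ES cells had pooled member levels of 1317, 1382, 3611, 2203, 1479, 2144, 3002 and 1975 CPM in rows A to H. In MEFs the same rows had 1423, 3792, 2763, 126, 91.2, 93.5, 110 and 503 CPM. The MEF rows with the 5 cells (A, B, C and H) were the rows above 126 CPM. ES cells exceeded MEFs in rows C to H, and MEFs exceeded ES cells in rows A and B. By the median cell of each row, ES cells lay at 514 to 2901 CPM and MEFs at 66.9 to 285 CPM, without overlap.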

How the data were processed

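Per the file headers, the authors deposited raw read counts for transcripts, spike-in RNAs and repeats in each of 96 wells, as maximum exon hits that include reads with alternative mappings. A separate deposited column, classed here as another unit, held uniquely mapped reads, and at least 92.7% of each member's reads were unique. Bowtie is named per the submitters' processing notes; its version, the build and the annotation are not given in the sources used here. Reads carried no molecular identifiers, so PCR copies counted separately.

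Gene reads per well (no spike-in or repeat rows) gave CPM. ES cell replicates 32, 44 and 46 fell below 10000 gene reads and were left out. Pooled ratios took genes with at least 20 reads over both types, with a floor of 3 reads; cells were thinned without replacement to 20000 gene reads (seed 1); correlations used a pseudocount of 10 CPM. The SD over 8 plate rows mixes cell and technical spread. For single genes it left out rows with 3 or fewer reads of the gene, so that of Plk1 covers 6 rows and that of Ttk 5. Intervals are exact Clopper-Pearson or Poisson ones. Members and gene lists were chosen with earlier results of these data known. Genes with per-cell values were the member of each role group with the most reads, plus Ccnb1, Cdc20, Plk1, Aurka and Top2a; other members were named after their values were seen. From each further list came the 3 with the largest log2 ratio with 10 CPM added. Scripts were tested on simulated data. Python 3.11.15, pandas 2.3.3, numpy 2.4.6 and SciPy 1.17.1 were used. Promoters came from RefSeq (GRCm38.p6), which held none for Aurkb, Ccna2, Incenp, Kif20a, Spc24 and Tpx2.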

Additional observations from a re-analysis of the deposited data

How the results depend on the processing

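No paired analysis was possible because the cell types share no replicate numbers in the labels and no test was run; both types lie in each of the 8 plate rows, and the within-row values in the report are a description. Scaling to spike-in RNA reversed the median log2 ratio of members, to −3.75, with 0 members 2-fold or more higher in ES cells and 38 2-fold or more lower. It moves every gene by the same −4.56, and 94.7% of measured genes were then 2-fold or more lower. It also reversed the named members (Ccnb1 −2.44, Aurka −4.88, Bub1 −2.78, Ube2c −3.79, Birc5 −3.00, Cenpa −3.85, Hmmr −3.55, Prc1 −4.61, Top2a −3.15, Cdc20 −3.98 and Plk1 −3.72). On the CPM scale Aurka (−0.32) and Prc1 (−0.043) were reversed against their values relative to the median gene. Median-of-ratios factors gave 30 members higher and 1 lower, totals without ribosomal protein genes 27 higher, and 10 CPM added 1 lower. Set against the median gene, 32 were higher and 0 lower. Plate rows A to D gave 10 lower, and rows E to H a median of 5.41 with 35 higher and 1 lower. Without MEF replicates 51 and 58, 32 were higher and 1 lower. Leaving out each plate row or cell in turn gave medians of 1.88 to 2.84, 14 to 25 members higher and 1 to 5 lower.

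The share of ES cells with at least 5 members, 83.3%, was 57.1% with a cut of 8 members, 64.4% at 10000 gene reads, 62.2% unthinned with a cut of 10 and 61.9% when a member needed 2 reads. The MEF share of 11.4% was 25% with a cut of 3 members and 77.3% unthinned. The ES cell median of summed CPM was 3380 with totals without ribosomal protein genes. The median pair correlation in ES cells was 0.26 over the 5 members read in at least 50% of cells. In MEFs it was reversed to −0.044 in rows E to H. It was −0.009 among cells below the cut, which were picked by reads of the same members. At equal depth too few MEF members passed the filter to give a value. CCAAT was found in 53.1% of member promoters within 50 bases of the start (15.6% of all genes), and TTTGAA in 71.9% there (5.72%) and in 78.1% of the 300-base windows (20.2%). The cause of these shifts was not tested. Shallow ES cells limit what a missing read can show, and 1 plate with 1 sample per type holds no culture-to-culture spread.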
